A study of Mus musculus with 5 samples.

Results

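miR-335 is a microRNA (miRNA) whose hairpin lies within Mest, a gene read from the paternal copy only, because the maternal copy is silenced by imprinting. The mature products of its hairpin, mmu-miR-335-5p and mmu-miR-335-3p, were taken by name as 2 of the 1966 miRNA rows of the count table. Both were among the 517 rows with a count in at least 1 library, and both passed the low-count filter that left 327 miRNAs for testing. Small RNA was sequenced from extracellular vesicles (EVs), membrane vesicles that cells shed into their medium, here mesenchymal stem cells of C57BL/6-GFP transgenic mice. The study asked whether freeze-drying changes their miRNA content, with 3 libraries of freeze-dried EVs and 2 of EVs that were not freeze-dried. Freeze-dried EVs had been frozen at -80 °C with 25 mM trehalose, dried overnight and rehydrated for 1 h, and the EVs of both groups came from cells kept for 48 h in reduced-serum medium. The labels do not give the freezing buffer or storage temperature of each preparation before RNA extraction (trehalose was in some of the buffers named), the age of the mice or whether replicates were separate cultures, so each p-value refers to the spread among these samples alone, and that spread may be technical. No library of the cells themselves was used here, so all levels are those of vesicles, and fewer vesicles with a miRNA and fewer copies in each cannot be told apart.

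A miRNA hairpin is cut by Drosha and Dicer into a short duplex, and 1 strand of it is loaded into an Argonaute protein, where its seed (bases 2 to 8) selects the messenger RNAs to be repressed. The strand from the leading side of the hairpin is called 5p and the other 3p, and hairpins differ in how far 1 strand prevails. In human mesenchymal stem cells miR-335 is known as an abundant miRNA that falls when the cells differentiate and that represses the bone regulator RUNX2. In human breast cancer it is known as a suppressor of metastasis that represses SOX4 and TNC. In mouse bone cells miR-335-5p is known to repress Dkk1, an inhibitor of Wnt signalling.

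The sequences below show how the arms of miR-335 differ in their seeds and where they sit in the hairpin. They are RefSeq's, on the GRCm38.p6 build. The seed is in capitals in the mature sequences, and both mature arms are in capitals in the hairpin.
miR-335-5p: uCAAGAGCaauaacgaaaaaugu
miR-335-3p: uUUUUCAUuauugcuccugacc
mir-335 hairpin: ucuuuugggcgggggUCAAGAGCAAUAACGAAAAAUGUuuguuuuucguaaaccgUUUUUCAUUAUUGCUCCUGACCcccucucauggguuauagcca

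The hairpin of 98 bases lies at chr6:30741299-30741396, on the plus strand, the same strand as Mest. miR-335-5p lies at chr6:30741314-30741336 and miR-335-3p at chr6:30741354-30741375. In GENCODE M21, which uses GRCm38, the hairpin lies in an intron in 7 of 11 Mest transcripts and outside the other 4. This intron has 1316 bases, at chr6:30740825-30742140, and it is intron 2 in Mest-210, a protein-coding transcript. The hairpin starts 474 bases after the upstream exon. Set against each other in reverse over 20 bases without gaps, the arms formed 18 Watson-Crick pairs and 2 mismatches. The seeds CAAGAGC and UUUUCAU are different, and 0 of the other mature miRNAs in RefSeq's table of 1679 shared either of them. Each arm occurred in 1 hairpin of that table, so no second hairpin there could give the same mature sequence.

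The libraries had between 131507 and 2914305 counts. Freeze-dried replicates 1 and 2 and not freeze-dried replicate 1 had over 500000 and are called deep, and freeze-dried replicate 3 (192450 counts) and not freeze-dried replicate 2 (131507 counts) are called shallow, a division made after the data were examined. All 13 mesenchymal markers looked for, such as miR-21a-5p, miR-143-3p and miR-199a-3p, had counts. Together they took 18.5% to 21.7% of the counts in freeze-dried libraries and 25.4% to 27.4% in not freeze-dried ones. Single markers did not all go the way of this sum. The log2 change, freeze-dried over not freeze-dried, was -0.28 for miR-21a-5p, -0.66 for miR-143-3p and 0.57 for miR-199a-3p (each with edgeR adjusted p = 0.98). Of 18 markers of 7 other cell types, 10 had a count in any library, and together they took 0.0536% to 0.109% in freeze-dried libraries and 0.0547% to 0.145% in not freeze-dried ones. All 5 markers of pluripotent cells were at 0, as were miR-142a-3p of leukocytes and miR-141-3p and miR-200c-3p of epithelium. The lists were short, with 4 epithelial and 2 neuronal markers, and no list covered muscle. The low sums therefore hold for the listed markers only and do not show that miRNAs of other cell types were nearly absent. Outside these lists, the hairpins miR-182, miR-183 and miR-206 had 20650, 16022 and 9190 counts over the 5 libraries, against 2593 for miR-335. From which cells those counts came was not tested. The part of the listed markers in the level of miR-335 was not tested either.

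miR-335 was a minor miRNA of these vesicles, and it was nearly missing from 1 of the 5 libraries. Levels below are CPM, read counts scaled to a common library size with TMM factors. miR-335-5p stood at 121, 237 and 0 CPM in freeze-dried replicates 1, 2 and 3, from 334, 610 and 0 counts. It stood at 262 and 91.8 CPM in not freeze-dried replicates 1 and 2, from 267 and 12 counts. The groups overlapped, with the highest value in a not freeze-dried library and the lowest in a freeze-dried one.

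miR-335-3p stood at 168, 329.4 and 11.4 CPM in freeze-dried replicates 1, 2 and 3, from 463, 849 and 2 counts. It stood at 40.2 and 115 CPM in not freeze-dried replicates 1 and 2, from 41 and 15 counts. The groups overlapped here too, and freeze-dried replicate 2 held the highest level and freeze-dried replicate 3 the lowest. In not freeze-dried libraries the order of the arms differed, since 5p was above 3p in replicate 1 and below it in replicate 2.

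**Figure D1:**
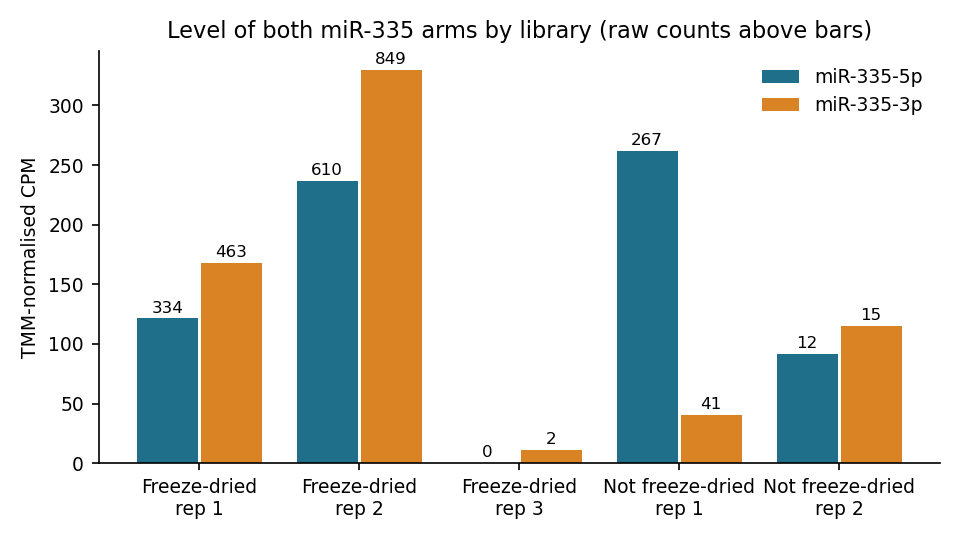
Bars give the TMM-normalised CPM of miR-335-5p and miR-335-3p in each library, with the raw count above each bar. The 3p bar is the taller one in every freeze-dried library and in not freeze-dried replicate 2, while in not freeze-dried replicate 1 the 5p bar stands at 262 CPM beside 40.2 CPM for 3p.

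Averaged over libraries, miR-335-5p had 119 ± 118 CPM in freeze-dried EVs (n = 3, SD) and 177 ± 120 CPM in not freeze-dried EVs (n = 2, SD). miR-335-3p had 170 ± 159 CPM in freeze-dried EVs (n = 3, SD) and 77.5 ± 52.7 CPM in not freeze-dried EVs (n = 2, SD). Summed over both arms, the level was 289 ± 277 CPM in freeze-dried EVs (n = 3, SD) and 254 ± 67.3 CPM in not freeze-dried EVs (n = 2, SD), a difference well within the spread between libraries.

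Freeze-drying gave no called change in either arm. In edgeR's quasi-likelihood test on the counts of all 327 miRNAs, miR-335-5p had a fitted log2 change of -0.56 (SE 1.71, 95% interval -4.38 to 3.26, adjusted p = 0.98), or a fitted fold of 0.678. miR-335-3p had a fitted log2 change of 1.16 (SE 1.63, 95% interval -2.49 to 4.80, adjusted p = 0.98), or a fitted fold of 2.23. Both intervals reach past 2-fold in both directions, so these libraries leave room for a large rise or fall of either arm. The same fit called 0% of the 327 miRNAs, with 9 at an unadjusted p under 0.05, and neither DESeq2 nor limma-voom called any (0 each), with 16 each at that unadjusted p. In 17.4% of the 327 miRNAs the CPM ranges of both groups were apart, and neither arm of miR-335 was among these. Fitted changes of miR-335-5p turned positive when not freeze-dried replicate 1 (0.45) or freeze-dried replicate 3 (0.03) was left out. That of miR-335-3p was 0.30 without freeze-dried replicate 2 and 2.07 without not freeze-dried replicate 2. The median of all tested miRNAs moved too, to 0.57 without not freeze-dried replicate 1 and 0.50 without not freeze-dried replicate 2. The 0.45 of miR-335-5p was thus below the median of its fit.

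**Figure D2:**
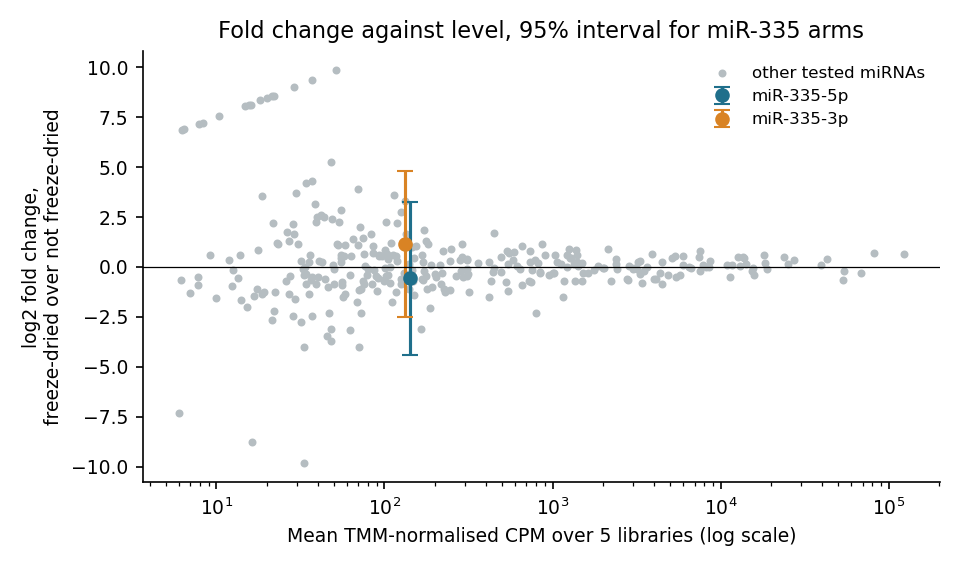
Each point is 1 of the 327 tested miRNAs, with its mean CPM over the 5 libraries on a log axis and its fitted log2 fold change, freeze-dried over not freeze-dried, on the other axis. Bars give the 95% interval of the miR-335 arms, which spans 0 for both, from -4.38 to 3.26 for 5p and from -2.49 to 4.80 for 3p.

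As a share of all miRNA counts, which needs no scaling between libraries, both arms together took 0.0273%, 0.0590% and 0.00104% in freeze-dried replicates 1, 2 and 3. They took 0.0338% and 0.0205% in not freeze-dried replicates 1 and 2. The mean was 0.0291% ± 0.0290 in freeze-dried EVs (n = 3, SD) and 0.0272% ± 0.0094 in not freeze-dried EVs (n = 2, SD). An exact two-sided permutation test of these shares gave p = 1, where the smallest p possible for 3 against 2 libraries is 0.2. The sign of this small difference also turns without freeze-dried replicate 2 (-0.0130 percentage points) or without not freeze-dried replicate 2 (-0.0046).

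The low level in freeze-dried replicate 3 exceeds counting error. Its 2 counts of 192450 give a share whose exact 95% binomial interval runs from 0.000126% to 0.00375%, below the lowest lower bound of the other libraries, 0.0135% in not freeze-dried replicate 2. For miR-335-5p alone, a count of 0 there allows a share of up to 0.00156% taken as 3 counts of the total, and up to 0.00192% by the two-sided exact interval. The lower bound of the same interval was 0.0103% in freeze-dried replicate 1 and 0.0047% in not freeze-dried replicate 2, which has fewer counts in all. Intervals and floors cover counting error only, because counted reads need not be independent molecules. Most miRNAs of a like level were not low in freeze-dried replicate 3. In the range of 100 to 1000 CPM, chosen after the values were seen, 2 miRNAs had a count of 0 there and 5 had 2 counts or fewer, each count including an arm or both arms of miR-335. The log2 CPM there minus the median of the other 4 libraries was -8.82 for 5p, which depends on the prior count of 0.5, and -3.57 for 3p, beside a median of 0.33 for all miRNAs of that range.

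Freeze-dried replicates 1 and 2, the deepest libraries, differed in how much miR-335 they held, while the split between the arms was nearly the same. The share of 5p in replicate 2 was 2.15 times that in replicate 1, and the share of 3p was 2.16 times that in replicate 1. In the not freeze-dried libraries the arms went opposite ways. The share of 5p was 3.21 times as high in replicate 1 as in replicate 2, while the share of 3p was 2.54 times as high in replicate 2 as in replicate 1. For 5p the binomial intervals of not freeze-dried replicates 1 and 2 were 0.0259% to 0.0330% and 0.0047% to 0.0159%, and for 3p they were 0.00323% to 0.00610% and 0.00638% to 0.0188%. Neither pair of intervals overlapped, so within this group both arms differed by more than counting error.

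The 5p arm made up 41.9% of miR-335 counts in freeze-dried replicate 1 (334 of 797, exact 95% binomial interval 38.5% to 45.4%). In freeze-dried replicate 2 it made up 41.8% (610 of 1459, interval 39.3% to 44.4%). These shares differed by 0.0977 percentage points. Freeze-dried replicate 3, with 0 of 2 counts, allows any share up to 84.2% and carries almost no information on the arms. In not freeze-dried replicate 1 the 5p arm made up 86.7% (267 of 308, interval 82.4% to 90.3%), a ratio of 6.51 counts of 5p for each count of 3p. In not freeze-dried replicate 2 it made up 44.4% (12 of 27, interval 25.5% to 64.7%), a ratio of 0.80. The interval of not freeze-dried replicate 2 holds the values of freeze-dried replicates 1 and 2, whereas that of not freeze-dried replicate 1 lies above the intervals of all the other libraries but that of freeze-dried replicate 3, which it overlaps.

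**Figure D3:**
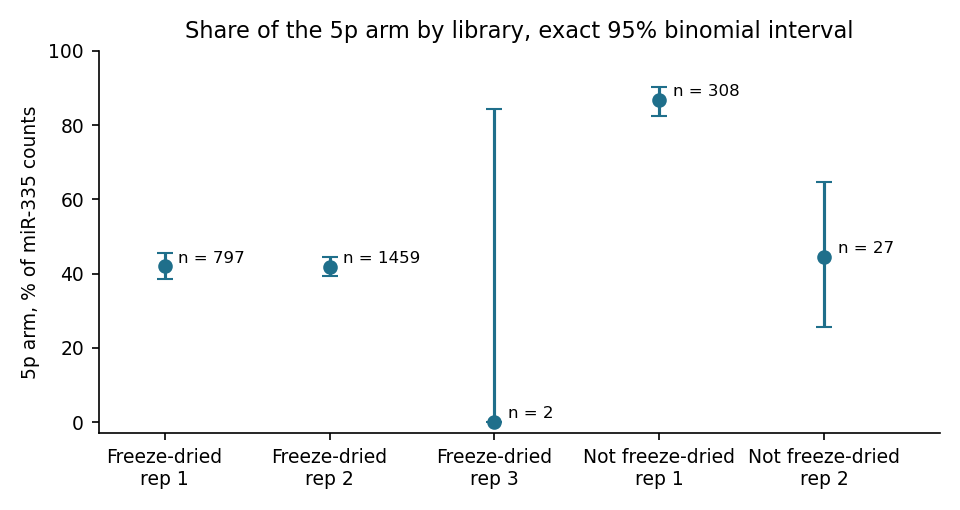
Points give the 5p arm as a percentage of all miR-335 counts in each library, bars the exact 95% binomial interval, and n the miR-335 counts behind each point. Freeze-dried replicates 1 and 2 and not freeze-dried replicate 2 lie between 41.8% and 44.4%, and not freeze-dried replicate 1 lies at 86.7%.

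As a mean over libraries, the log2 ratio of 5p to 3p counts, with 0.5 added to each, was -1.09 ± 1.07 in freeze-dried EVs (n = 3, SD) and 1.19 ± 2.12 in not freeze-dried EVs (n = 2, SD). The values of the groups did not overlap, but the nearest were close, at -0.31 in not freeze-dried replicate 2 and -0.47 in freeze-dried replicate 1. The lowest, -2.32 in freeze-dried replicate 3, came from 0 and 2 counts. How many other hairpins had groups apart in this ratio was not counted. In CPM, a different measure, the ranges of the groups were apart in 17.4% of the 327 tested miRNAs. The exact two-sided permutation p of 0.2 is the smallest that 3 against 2 libraries can give, so the design could not pass a threshold of 0.05. With every library thinned to the depth of the shallowest, the difference was -1.91 and p was 0.6 by the same exact permutation test, and the values of the groups overlapped. The difference of -2.28 rested on single libraries. It was -0.78 without not freeze-dried replicate 1, and it was -0.16 when freeze-dried replicate 3 was left out too, a comparison added after the values were seen. In the deep libraries alone it was -3.16. Apart from not freeze-dried replicate 1, the counting intervals of the 5p shares all overlapped.

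Most hairpins in these vesicles gave a less even split than miR-335. Pooled over the 5 libraries, 1223 of its 2593 counts came from 5p, or 47.2%, a mix of the 41.9% and 41.8% of freeze-dried replicates 1 and 2 with the 86.7% of not freeze-dried replicate 1, and 98.9% of those counts came from these 3 deep libraries. Of 215 hairpins with both arms listed and at least 50 pooled counts, 167 (77.7%) had less than 10% of their counts on the minor arm. By pooled counts 2 hairpins, miR-151 and miR-582, were closer to an even split than miR-335, and by the mean of the 5p share over libraries (43.0% for miR-335) 10 were. miR-151, from an intron of Ptk2, held 53.0%, 42.4% and 53.4% of 5p in freeze-dried replicates 1, 2 and 3 and 46.0% and 41.2% in not freeze-dried replicates 1 and 2, near an even split in each. miR-423 stayed between 39.9% and 52.4% in every library. miR-582 reached its pooled 52.7% from libraries of nearly 1 arm each, with 100% of 5p in freeze-dried replicate 2 and 0% in not freeze-dried replicate 1. These were named after their values were seen.

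**Figure D4:**
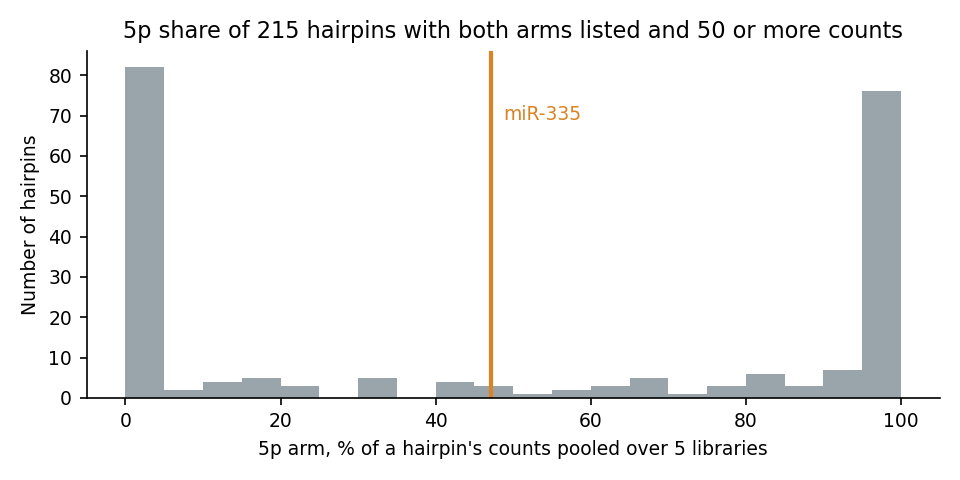
The histogram counts hairpins by the percentage of their pooled counts on the 5p arm, for the 215 hairpins with both arms listed and at least 50 counts. Most hairpins sit at the ends of the axis, 84 below 10% and 83 above 90%, and the line marks miR-335 at 47.2%.

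How the shift of the arms in not freeze-dried replicate 1 compared with that of other hairpins depended on the scale. Library depth sets part of the log2 scale. Among the 121 hairpins with at least 50 counts in each of the 3 deep libraries, the 5p share averaged over freeze-dried replicates 1 and 2 differed from that in not freeze-dried replicate 1 by a median of 0.572 percentage points in either direction, and by less than 5 in 91 hairpins. For miR-335 the difference was -44.8 points, at 41.9% in the freeze-dried libraries against 86.7% in the not freeze-dried one. In points only miR-467a, one of the repeated hairpins of Sfmbt2, differed by more, with 100% of 5p in both deep freeze-dried libraries and 0% in the deep not freeze-dried one. As a log2 ratio of 5p to 3p, 28 of the 121 hairpins differed by more than the -3.16 of miR-335. The median difference in either direction was 1.69. Of the 121, 42 had counts on 1 arm only in all 3 deep libraries. Their difference comes from library depth and the count added to each arm, not from a shift. miR-155, at 100% of 5p in every library, differed by 3.09. miR-143, at 0% of 5p in not freeze-dried replicate 1, differed by 6.21 in log2 ratio but by 0.0677 points. The 28 and the median therefore do not show how often other hairpins shifted their arms. Next in points came miR-362, with 41.9% and 54.9% in freeze-dried replicates 1 and 2 and 90.9% in not freeze-dried replicate 1. Arms could also part between libraries of the same group. For miR-18a, 5p made up 0.847% in freeze-dried replicate 1 and 100% in freeze-dried replicate 2, and for miR-301a 66.0% and 0%. Hairpins with few counts on the minor arm can hardly shift in points and can shift far in log2 ratio, so both orders are descriptions and not tests.

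In level the arms of miR-335 were next to the middle of the tested miRNAs. miR-335-5p ranked 166th and miR-335-3p 170th of 327 by mean CPM over the 5 libraries, at 142.3 ± 108 and 133 ± 126 CPM (n = 5, SD). Directly above 5p were miR-532-3p at 146 and miR-1943-5p at 145.4 CPM, and directly below it miR-18a-3p and miR-671-5p, with 140.6 and 140.1 CPM. The neighbours of miR-335-3p were miR-671-5p and miR-23a-5p (135 CPM) above it, and below it came miR-340-3p (132 CPM), from an intron of Rnf130, and miR-214-5p (130 CPM). Of these, miR-340-3p had a median of only 10.9 CPM and a highest value of 609 CPM, so its mean rests mainly on its highest library. The closeness of all these neighbours to miR-335 in mean CPM, within the SD between libraries, follows from their choice by level. Within single libraries, 5p ranked 159th and 129th in freeze-dried replicates 1 and 2 and 201st in not freeze-dried replicate 2, and 3p between 115th in freeze-dried replicate 2 and 281st in freeze-dried replicate 3.

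The miRNAs whose levels ran most like those of each arm were not the same, and the arms were not each other's nearest. Likeness was the root mean square difference of log2 CPM, each miRNA centred on its own mean, over the 5 libraries, so a lower value means a closer pattern. Nearest to miR-335-5p were miR-450a-5p (0.81) and miR-93-3p (0.98), then miR-21a-3p (1.25), miR-1945 (1.42) and miR-877-3p (1.77), against a median of 3.73 for all tested miRNAs. All 5 had 0 counts in freeze-dried replicate 3. miR-450a-5p, of an X-linked cluster, had 855, 472 and 0 counts in freeze-dried replicates 1, 2 and 3 and 301 and 39 in not freeze-dried replicates 1 and 2.

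Nearest to miR-335-3p were miR-1943-5p (0.68), miR-503-3p (0.71), miR-7688-5p (0.84), let-7c-2-3p (0.87) and miR-466c-3p (0.93), against a median of 2.09. These 5 had 1 to 8 counts in freeze-dried replicate 3. miR-503-3p, from the same cluster as miR-450a, had 497, 339 and 1 counts in freeze-dried replicates 1, 2 and 3 and 64 and 11 in not freeze-dried replicates 1 and 2. The distance between the arms of miR-335 was 2.45, which put 3p in 13th place from 5p and 5p in 197th place from 3p. In centred log2 CPM the arms lay furthest apart in freeze-dried replicate 3, at -7.01 for 5p and -2.75 for 3p, from 0 and 2 counts. Next came not freeze-dried replicate 1, at 2.44 and -0.96. Where a library has 0 counts, the value depends on the prior count of 0.5, so these distances and neighbours rest in large part on few reads.

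**Figure D5:**
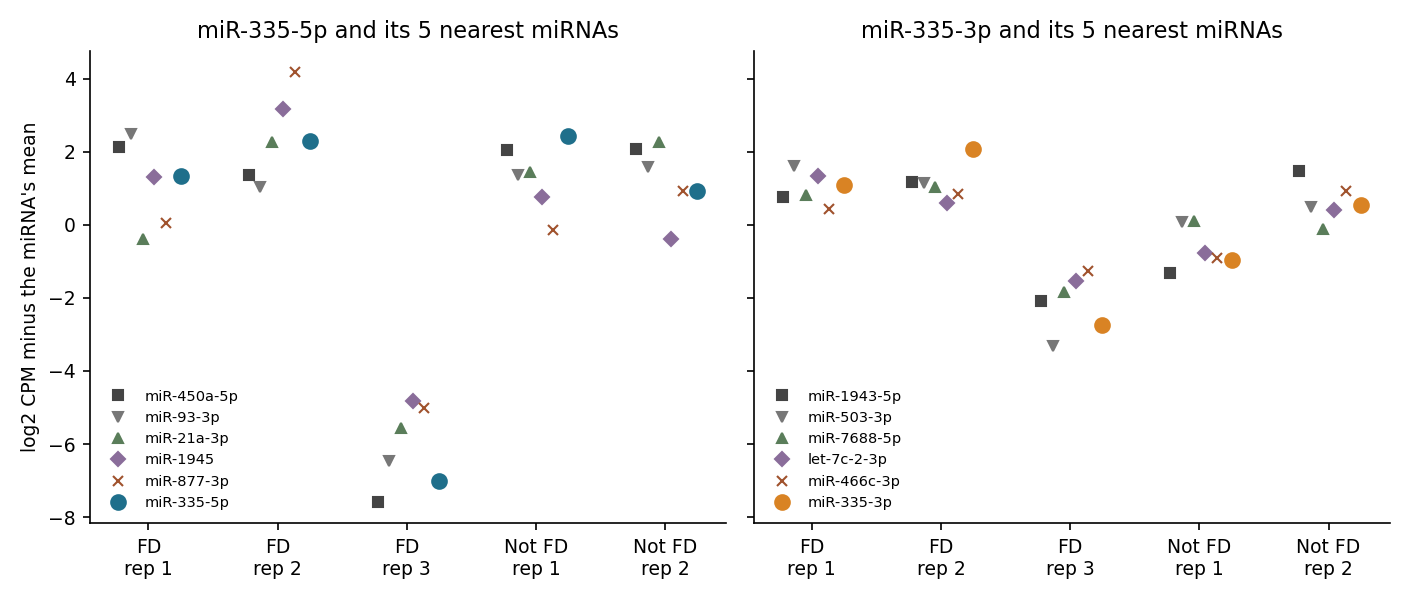
Points give log2 CPM minus the miRNA's own mean in each library (FD, freeze-dried), for miR-335-5p and its 5 nearest miRNAs on the left and for miR-335-3p and its 5 nearest on the right. All points of the left panel drop in freeze-dried replicate 3, where each of these miRNAs has 0 counts, and in the right panel the points of that library are the lowest.

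Other miRNAs of imprinted loci had counts about as often as all miRNAs of the table. Of 188 listed arms from the H19, Igf2, Nespas, Dlk1-Dio3 and Sfmbt2 loci, 45 (23.9%) had a count, beside 517 of all 1966 (26.3%), and 21 were tested, of which 10 had a fitted fold change above 1 and 11 below. Their median log2 fold change was -0.0025, beside 0.02 for all 327, and 0 were called. By locus, 31 of 80 arms of Sfmbt2 had a count, 12 of 100 of Dlk1-Dio3 and 2 of 2 of Igf2. Sfmbt2 gave 18 of the 21 tested arms, so these directions and this median are mostly those of that locus. The Nespas miRNAs miR-296 and miR-298, which like miR-335 come from the paternal copy, had 0 counts, as had miR-675 of the maternally expressed H19. Only 3 of the 188 arms had a higher mean CPM than the arms of miR-335. The most abundant were miR-669c-5p and miR-669a-5p, both repeated hairpins in an intron of Sfmbt2 whose near-identical copies can share reads. miR-669c-5p had 1542 ± 403 CPM in freeze-dried EVs (n = 3, SD) and 835 ± 110 CPM in not freeze-dried EVs (n = 2, SD), and its fitted log2 change was 0.88 (SE 0.43, edgeR adjusted p = 0.98). miR-669a-5p had 281 ± 179 CPM in freeze-dried EVs (n = 3, SD) and 362 ± 7.43 CPM in not freeze-dried EVs (n = 2, SD), and its fitted log2 change was -0.37 (SE 0.93, edgeR adjusted p = 0.98).

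miR-483 lies, like miR-335, in an intron of a paternally expressed gene, the growth factor gene Igf2, and it was named after its values were seen. miR-483-5p stood at 3.63, 90.4 and 96.7 CPM in freeze-dried replicates 1, 2 and 3 and at 24.5 and 61.2 CPM in not freeze-dried replicates 1 and 2. miR-483-3p stood at 11.6, 36.5 and 0 CPM in freeze-dried replicates 1, 2 and 3 and at 99.0 and 0 CPM in not freeze-dried replicates 1 and 2. As with miR-335, the arm that was higher differed between libraries, and the groups overlapped for both arms.

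Among miRNAs from introns of other protein-coding genes, most arms with a count stood above miR-335 in level. Of 77 listed arms, 48 (62.3%) had a count, 30 had a higher mean CPM than either arm of miR-335 and 43 were tested, with 20 above and 23 below a fold change of 1. Their median log2 fold change was -0.06, beside 0.02 for all 327, and 0 were called. The most abundant was miR-140-3p, from an intron of Wwp2 and known from cartilage, at 18447 ± 8355 CPM in freeze-dried EVs (n = 3, SD) and 19477 ± 4958 CPM in not freeze-dried EVs (n = 2, SD). miR-25-3p, from an intron of the replication gene Mcm7, followed at 13192 ± 992 CPM in freeze-dried EVs (n = 3, SD) and 12709 ± 2503 CPM in not freeze-dried EVs (n = 2, SD). Their log2 fold changes were -0.08 (SE 0.42) and 0.05 (SE 0.27), with far smaller errors than those of the miR-335 arms. The SE of 1.71 for miR-335-5p and 1.63 for miR-335-3p was near the median SE of all 327 miRNAs, 1.59. Over 5 libraries the SD of log2 CPM was 3.97 for miR-335-5p, exceeded by 8.26% of the 327 tested miRNAs, and 1.89 for miR-335-3p, exceeded by 43.1%. The SD of 5p rests mainly on freeze-dried replicate 3, whose 0 counts gave -7.01 around the arm's mean, a value set by the prior count of 0.5. The other libraries lay between 0.93 and 2.44.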

How the data were processed

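The authors deposited raw read counts per mature miRNA as a table of 1966 rows for 5 samples. Tools listed without a role in the submitters' processing notes are featureCounts 1.5.0-p1, Bowtie 1.1.2, cutadapt 2.3, FastQC and bcl2fastq 2.20, and the build listed is GRCm38. How strand, multiple matches and duplicates were handled is not given in the sources used here, nor is the annotation release. Libraries were size-selected at 126 to 169 bp, per the labels' protocols. Samples were grouped by their labels. In R 4.3.3, edgeR 4.0.16 tested the counts by a robust quasi-likelihood F test after TMM scaling and filterByExpr, with Benjamini-Hochberg adjustment over 327 miRNAs and a threshold of 0.05, with DESeq2 1.42.0 and limma-voom (limma 3.58.1) as alternatives. The functions were tested on simulated counts. Shares were compared by exact permutation in scipy 1.17.1.

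Named miRNAs are both arms, the 5 nearest to each in pattern, their 2 neighbours in level on each side, and the called or else the 2 most abundant members of each list, with exceptions stated. The members and lists were chosen with earlier results of these data known. Alternatives were other normalizations, filters, tools, pseudocounts and totals, thinning to 131507 counts, leaving out each library, depth class as a term, the deep libraries alone and the replicate block. Of miRNAs in the table, 1675 matched a RefSeq mature sequence by name.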

Additional observations from a re-analysis of the deposited data

How the results depend on the processing

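Neither arm of miR-335 was called in any of 16 alternatives, where adjusted p-values ranged from 0.88 to 0.999 for 5p and from 0.83 to 0.999 for 3p. The log2 fold change of 5p, -0.56, was above 0 in 3 of them: it was 0.11 with the replicate block, and from -1.50 to 0.45 without 1 library. The cause was not tested. With depth class as a term it was -2.57. That of 3p, 1.16, stayed above 0 in all 16, from 0.02 with depth class as a term to 2.61 in the deep libraries alone. In the deep libraries alone the median of all tested miRNAs was 0.42. Library totals in place of TMM gave a median log2 fold change of all miRNAs of -0.09, against 0.02 with TMM, and kept the direction of both arms. No miRNA was called higher in any alternative. The count called lower was 0, but 4 with the replicate block and 1 in the deep libraries alone, none of them an arm of miR-335. The difference in the share of counts, 0.0020 percentage points, ran from -0.0130 to 0.0160 without 1 library. The log2 difference in arm ratio, -2.28, stayed below 0 in its 11 alternatives, between -3.78 and -0.16, with an exact permutation p of 0.2 to 0.6 where one could be had. Freeze-dried replicate 3 and not freeze-dried replicate 2 had only 2 and 27 miR-335 counts for the arm shares. Whether depth also limits the arm shares of the deep libraries was not tested. The comparison of freeze-dried replicates 1 and 2 with not freeze-dried replicate 2 was added after the data were seen. Same-numbered libraries form 2 pairs whose deviations correlated at 0.13 and -0.0977, and the labels do not say that they were paired.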
